A study of Mus musculus with 8 samples.

Results

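The mRNAs described here encode the proteins of the mitochondrial ribosome that carry the gene symbols Mrpl (large subunit) and Mrps (small subunit). They were taken by name: every protein-coding gene of the count table whose mouse symbol is Mrpl or Mrps followed by a digit, without the pseudogenes that carry -ps names. The rule gave 78 of the 52550 genes in the table, 49 Mrpl and 29 Mrps genes, and used no measured value. Of these, 74 (47 Mrpl and 27 Mrps) reached a CPM (counts scaled to the same total of gene reads in every library) of 1 in all 4 inputs and were tested among 10754 genes.

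The study asked which transcripts are bound by eIF4A2 in mouse embryonic stem cells (ESCs). This protein is a DEAD-box RNA helicase and a component of eIF4F, the cap-binding complex of translation initiation. In RNA immunoprecipitation sequencing (RIP-seq), an antibody to the tag pulls down the tagged protein with the RNA on it, and that RNA is sequenced next to RNA of the lysate, the input. All 4 groups of 2 libraries came from Eif4a2 KO ESCs grown in medium with the inhibitors CHIR99021 and PD0325901 and with LIF: input EV and RIP EV from cells with the empty vector and no Flag-tagged protein, and input eIF4A2 and RIP eIF4A2 from cells that re-expressed the full-length Flag-tagged protein. The immunoprecipitations used an anti-Flag antibody for 3 h. The rescue lines are clonal with a transposon-borne coding sequence, and a pair of clones served as biological replicates. Where the EV replicates came from is not given in the sources used here, so p-values of comparisons with EV rest on a spread that may be technical. One characteristic of RIP eIF4A2 replicate 2 names Eif4a3, while its title, source and genotype name Eif4a2, and the latter were followed.

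Gene reads per library ran from 2044853 to 11206420, and 11823 to 87631 of them fell on the members. All 8 ESC markers examined lay at 1 CPM or more in both libraries of each input group. In the inputs, 4 fibroblast markers together gave 0.963 to 8.43 CPM. The 8 markers of formative or differentiating cells together gave 22.7 to 23.4 CPM in input EV and 22.5 to 63.6 CPM in input eIF4A2. Of these, 3 and 2 lay at 1 CPM or more in both libraries of the group. The 3′ tags of Eif4a2 did not separate the inputs (53.8 and 94.2 CPM in EV, 86.8 and 69.1 CPM in eIF4A2), and since the rescue vector carries the coding sequence, a 3′ tag of the endogenous gene is no check of the knockout. The 2 RIP EV libraries differed from each other far more than any other pair, with a biological coefficient of variation of 159% against 23.0% in RIP eIF4A2 and 28.0% to 30.0% in the inputs. Counts of calls that rest on RIP EV are therefore also given without each of its libraries.

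Mitochondria carry their own ribosomes, which make the few respiratory chain proteins that are still encoded by mitochondrial DNA. All mitoribosomal proteins are encoded in the nucleus, translated by cytosolic ribosomes, and imported, so their mRNAs are cytoplasmic like those of the cytosolic ribosomal proteins. Some have counterparts in the bacterial ribosome, and others were added during the evolution of mitochondria. Symbol and place do not always match, since the proteins of Mrps30 and Mrps18a are found in the large subunit, and the protein of Mrps36 has been assigned to the 2-oxoglutarate dehydrogenase complex.

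The start of an mRNA is where the cap-binding complex meets it, and many mRNAs of the cytosolic translation machinery start with a C followed by a run of pyrimidines, the 5′ terminal oligopyrimidine motif. The RefSeq promoter table (GRCm38.p6) was therefore searched at its annotated starts, which need not be the starts used in these cells. Of the 74 tested members, 65 were matched, and 0 of 65 started with C and at least 4 further pyrimidines. The same held for 12 of 53 cytosolic ribosomal protein genes (22.6%) and for 2.36% of 8063 tested protein-coding genes. The windows below run from 10 bases before the start to the base 20 of the transcript. Capitals mark the start base and, where it is a pyrimidine, the unbroken run of pyrimidines that it begins. They are shown for 4 of the members that differed between RIP and input, and for 2 cytosolic ribosomal protein genes, taken first by name, that carry the motif.
Mrps2 (chr2:28468056-28468085, plus strand): cgggcaggaaGagtctctgcaggatctctg
Mrpl30 (chr1:37890467-37890496, plus strand): aaagaaccgtAcggtctgtgacggcaacgg
Mrps23 (chr11:88204378-88204407, plus strand): cttggcttgcTTgctgccgcttccgcttcc
Mrps27 (chr13:99344776-99344805, plus strand): cccgccttccActtggtgcgctccaagatg
Fau (chr19:6057937-6057966, plus strand): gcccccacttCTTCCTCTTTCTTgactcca
Rpl14 (chr9:120571507-120571536, plus strand): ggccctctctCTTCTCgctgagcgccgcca
The 4 member windows start with A, G or a short run of T, and the 2 others with long runs of C and T. Of the members that differed and are not shown, Mrps22 starts with T in a run of 3 pyrimidines, and Mrpl35 with T and no further pyrimidine.

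The promoter windows were also searched for upstream motifs, as a description with no test. The letters CCGGAA, the core bound by ETS-family transcription factors, were present on either strand of the 300-base promoter window in 37 of 65 members (56.9%), in 23 of 41 Mrpl and 14 of 24 Mrps genes. They were present in 49.1% of cytosolic ribosomal protein genes, in 39.7% of nuclear respiratory chain genes, and in 31.4% of the tested protein-coding genes. The letters GCGCATG, part of the motif of nuclear respiratory factor NRF1, were present in 7 of 65 members (10.8%), all of them Mrpl genes, against 11.3% of cytosolic ribosomal protein genes, 20.6% of nuclear respiratory chain genes and 8.14% of the tested protein-coding genes. The 120 bases before the start of 3 members follow, with both motifs in capitals on the strand of the gene, to show how closely they can be packed.
Mrpl22 (chr11:58171544-58171663, plus strand): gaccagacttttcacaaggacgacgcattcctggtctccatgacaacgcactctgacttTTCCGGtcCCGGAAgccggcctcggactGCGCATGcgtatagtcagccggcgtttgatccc
Mrps27 (chr13:99344666-99344785, plus strand): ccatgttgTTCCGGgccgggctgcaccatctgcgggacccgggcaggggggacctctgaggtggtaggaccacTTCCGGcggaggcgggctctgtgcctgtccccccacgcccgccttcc
Mrpl30 (chr1:37890357-37890476, plus strand): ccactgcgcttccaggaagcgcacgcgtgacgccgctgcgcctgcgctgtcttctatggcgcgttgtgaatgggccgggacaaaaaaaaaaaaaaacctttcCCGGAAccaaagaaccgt
Mrpl22 and Mrps27 each hold CCGGAA in 2 places of this stretch and Mrpl30 in 1.

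In the inputs, the mRNAs of the members were moderately abundant. Together they held 9182 and 11528 CPM in input EV and 7610 and 8987 CPM in input eIF4A2, which is 0.761% to 1.15% of gene reads. A 3′ tag is counted about once per transcript, so CPM values of different genes can be set beside each other without a length correction. Mrpl12, which forms the stalk of the large subunit and is also reported to bind the mitochondrial RNA polymerase, was the most abundant member in every library, at 1059.7 and 1963 CPM in input EV and 754 and 730 CPM in input eIF4A2. Mrps6, Mrps25, Mrpl17 and Mrpl11 came next in mean input level, and each lay between 230.5 and 430.1 CPM in all inputs. The 5 most abundant members of a library held 22.0% to 30.5% of the members' reads.

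The 4 members below the filter were at or near the limit of detection. Mrps18b, Mrpl53 and Mrps36 stayed at or below 1.56 CPM in all 8 libraries. Mrpl23 gave 0.649 to 5.93 CPM in the inputs and 0.601 to 0.803 CPM in RIP eIF4A2, but 115 CPM in RIP EV replicate 1 and 0 in replicate 2. For a count of 0, the limit of 3 counts corresponds to 0.268 to 1.47 CPM depending on the library, a limit that takes in counting error alone because no molecular identifiers were read.

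In Flag-eIF4A2 cells, the mRNAs of the mitochondrial ribosome were recovered somewhat less well than the average mRNA. The median log2 difference between RIP eIF4A2 and input eIF4A2 was -0.37 over the 74 members and 0.02 over all genes tested, and 56 of the 74 members lay below the latter. At an adjusted p of at most 0.05 in edgeR, 5 of the 74 members fell and 1 rose. Those counts are no more than the background gives, since 8.46% of all genes tested were lower and 8.44% higher. With an unadjusted p under 0.05, 19 members were lower and 4 higher, against 16.7% and 17.3% of all genes. Both RIP libraries lay below both inputs in 42 members and above both in 7, on TMM-scaled CPM, where the background was 29.9% and 31.7%.

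**Figure D1:**
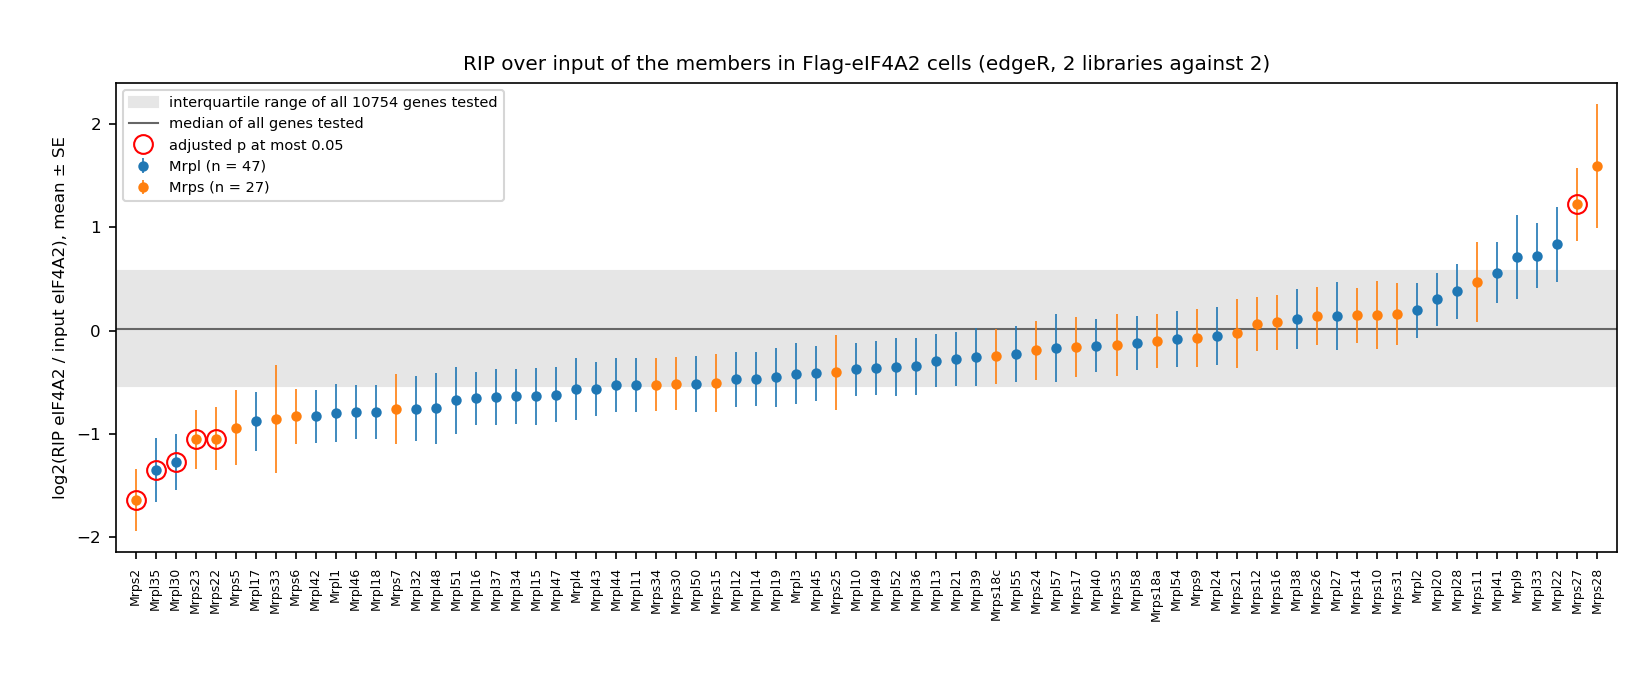
Log2 difference between RIP eIF4A2 and input eIF4A2 (y axis) for each of the 74 tested members (x axis, ordered by value), as the edgeR estimate with its standard error from 2 libraries against 2. Most points lie below the median of all 10754 genes (line at 0.02); red rings mark the 5 members lower and the 1 higher at an adjusted p of at most 0.05.

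In bulk libraries, a lower share of reads in the RIP does not tell fewer molecules bound per cell from fewer cells contributing them. The scale of these values depends on how the libraries were put on a common footing, because RIP and input differ in the makeup of their RNA. With library size alone in place of TMM, the median of all genes moved from 0.02 to 0.32 and that of the members from -0.37 to -0.06, and 4 members were called higher and 3 lower (1933 and 567 of all genes). The distance between the members and all genes was -0.38 with TMM and -0.39 with library size alone. Scaling shifts all genes nearly alike, so it could hardly move this distance. Likewise, on CPM of library totals both RIP libraries lay below both inputs in 24 members and above in 20, against 42 and 7 on TMM-scaled CPM. The share of all genes on library totals is not given here, so these counts show only that the scaling matters. The direction of single members is therefore to be read relative to all genes.

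Mrps2, the counterpart of the bacterial small-subunit protein S2, had the largest fall. Its levels were 114 and 166 CPM in input eIF4A2 and 64.7 and 46.3 CPM in RIP eIF4A2, so both RIP libraries were below both inputs (log2 difference -1.64, SE 0.30, adjusted p = 0.00836). In the cells without Flag protein, Mrps2 had 127 and 179 CPM in input EV, with 184 and 207 CPM after RIP, so there both RIP libraries were above both inputs. The test of the difference between the cell lines gave -1.99 (SE 0.49, adjusted p = 0.0319 in edgeR on 8 libraries). That fit shares 1 estimate of the spread between RIP EV and the tighter groups. The call held in 1 of 4 alternative fits with all libraries, where the value ranged from -2.01 to -1.69.

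A pair of large-subunit proteins with bacterial counterparts also fell. Mrpl35 had 90.0 and 163 CPM in input eIF4A2 and 63.0 and 58.8 CPM in RIP eIF4A2 (log2 difference -1.35, SE 0.31, adjusted p = 0.0196), and Mrpl30 had 72.5 and 92.0 CPM against 47.6 and 36.7 CPM (-1.27, SE 0.27, adjusted p = 0.015). In both genes the groups did not overlap. Mrpl35 gave 0 and 9.87 CPM in RIP EV, where Mrpl30 gave 5.38 and 48.4 CPM. On TMM-scaled CPM, both RIP eIF4A2 libraries lay above both RIP EV libraries in Mrpl35, and the groups overlapped in Mrpl30. Neither was called against RIP EV, a comparison in which none of the 10754 genes tested was called.

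The other 2 members that fell, Mrps23 and Mrps22, encode small-subunit proteins without a bacterial counterpart. Mrps23 had 88.1 and 133 CPM in input eIF4A2 and 61.5 and 69.6 CPM in RIP eIF4A2 (log2 difference -1.05, SE 0.29, adjusted p = 0.0342). Mrps22 had 25.3 and 37.9 CPM against 19.9 and 17.8 CPM (-1.05, SE 0.31, adjusted p = 0.0437). The groups did not overlap in either gene. None of the 5 members that fell overlaps a gene counted on the other strand.

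The member that rose, Mrps27, encodes a pentatricopeptide repeat protein of the small subunit. Its levels were low, at 6.28 and 6.91 CPM in input eIF4A2, and higher in both RIP libraries, at 20.2 and 17.9 CPM (log2 difference 1.22, SE 0.35, adjusted p = 0.0415). The level was 10.7 and 9.05 CPM in input EV and 0 and 0.299 CPM in RIP EV. A gene annotated on the other strand of Mrps27 had no counts in any library.

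The other members among the 5 largest positive values were not called. Mrps28 had the largest, with 8.44 and 4.98 CPM in input eIF4A2 and 40.2 and 10.1 CPM in RIP eIF4A2 (log2 difference 1.59, SE 0.60, adjusted p = 0.0929), so 1 library carried most of it. Without RIP eIF4A2 replicate 1 its difference was 0.33. Mrpl22, Mrpl33 and Mrpl9, all with bacterial counterparts, followed at 0.83, 0.73 and 0.71 (adjusted p from 0.135 to 0.248). On CPM of library totals, these 4 exceeded both input eIF4A2 libraries in both RIP libraries. Mrpl22 and Mrpl33 also exceeded both input EV libraries. Mrpl9 had 14.2 and 11.5 CPM in input EV, above its RIP eIF4A2 values of 9.99 and 9.52 CPM. Mrps28 had 16.0 and 24.3 CPM there, between its RIP eIF4A2 values. Mrps28 and Mrpl9 also have the largest negative values between the inputs, a comparison that shares these input eIF4A2 libraries.

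The calls of single members were not stable. Across the alternatives the value of Mrps2 ranged from -1.86 to -1.33 and the call was lost in edgeR on all 8 libraries alone (adjusted p = 0.21). Without RIP eIF4A2 replicate 1 there were 2 members lower and 0 higher (4.8% and 5.34% of all genes), without replicate 2 of that group 1 and 1 (4.23% and 3.75%), and without input eIF4A2 replicate 1 there were 9 and 1 (10.3% and 12.2%). Mrps27 passed under each setting that kept all 4 libraries apart from edgeR on 8 libraries, the replicate block (adjusted p = 0.054) and voom (adjusted p = 0.053), and under none that left one out.

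By gene symbol, the median was -0.42 for the 47 Mrpl genes (0 higher, 2 lower) and -0.16 for the 27 Mrps genes (1 higher, 3 lower). Among all genes tested, 8.44% were higher and 8.46% lower. The 27 Mrps genes include Mrps30 and Mrps18a, whose proteins are found in the large subunit. The spread among Mrps genes was wider, with a standard deviation across genes of 0.68 against 0.48. Members with a bacterial counterpart (44) and without one (30) had medians of -0.36 and -0.38. The difference between Mrpl and Mrps genes was not tested, since genes are not replicates. At the level of whole libraries, the ratio of summed Mrpl to summed Mrps CPM was 2.04 and 1.94 in input eIF4A2 and 2.05 and 1.91 in RIP eIF4A2, so the ranges overlapped.

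The members named for their roles did not pass the test in edgeR. Mrps12, whose bacterial counterpart S12 lines the decoding center, had 172 and 219 CPM in input eIF4A2 and 245 and 258 CPM in RIP eIF4A2 (log2 difference 0.06, SE 0.26). Mrpl58, a peptidyl-tRNA hydrolase that is built into the large subunit, was at 39.8 and 49.6 CPM and at 51.0 and 50.7 CPM (-0.12, SE 0.26). Mrps30 and Mrps18a, the large-subunit proteins with small-subunit names, were at -0.52 and -0.10. Mrpl12 was at -0.47 (SE 0.26, adjusted p = 0.236), with 683 and 642 CPM in RIP eIF4A2.

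The medians of other gene lists of mitochondrial translation differed. Calls in these lists are to be read beside the 8.44% of all genes tested that were higher and the 8.46% that were lower. The value moved with coding length over all genes, and the lists were not matched for it. The 17 mitochondrial aminoacyl-tRNA synthetases, which charge the tRNAs used by the mitochondrial ribosome, had a median of 0.68 with 3 higher and 0 lower. Tars2, which charges threonine tRNA, went from 34.8 and 37.9 CPM in input eIF4A2 to 132 and 101 CPM in RIP eIF4A2 (log2 difference 1.37, SE 0.27, adjusted p = 0.0113), and the other 2 were Pars2 and Aars2. Among 12 translation factors, 0 were higher and 2 lower with a median of -0.07: Mrrf, the ribosome recycling factor, at -1.47 and Taco1, a translational activator of cytochrome oxidase subunit 1, at -1.42.

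Of 19 assembly factors of the mitochondrial ribosome, 1 was lower (Fastkd2, an RNA-binding protein, at -0.90) and 0 higher, with a median of -0.08. The 5 tested ribosomal proteins under other symbols gave 0 in either direction and a median of -0.14, and Ptcd3, a small-subunit pentatricopeptide repeat protein like Mrps27, had the largest value among them at 0.76 (adjusted p = 0.104). Of 20 genes of mitochondrial protein import, 1 was lower (Timm22, the inner-membrane carrier translocase, at -2.63) and the median was -0.05. The 77 nuclear respiratory chain subunits had 1 higher, 7 lower and a median of -0.08, where 8.44% and 8.46% of all genes were higher and lower.

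The cytosolic counterparts stood lower than the mitochondrial ones. Of 72 tested cytosolic ribosomal protein genes, 46 were lower and 0 higher, next to 8.46% and 8.44% of all genes. Their median was -1.41, which is the median of a family with many near-identical copies whose reads can be split. Summed member CPM over summed cytosolic ribosomal protein CPM went from 0.129 and 0.128 in input eIF4A2 to 0.260 and 0.316 in RIP eIF4A2. Over the respiratory chain genes the ratio went from 0.365 and 0.335 to 0.298 and 0.310. In both ratios the 2 groups did not overlap, but 2 libraries against 2 cannot give an exact permutation p below 0.333 (two-sided, 24 ratios and sums tested, 0.421 after Benjamini-Hochberg adjustment).

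**Figure D2:**
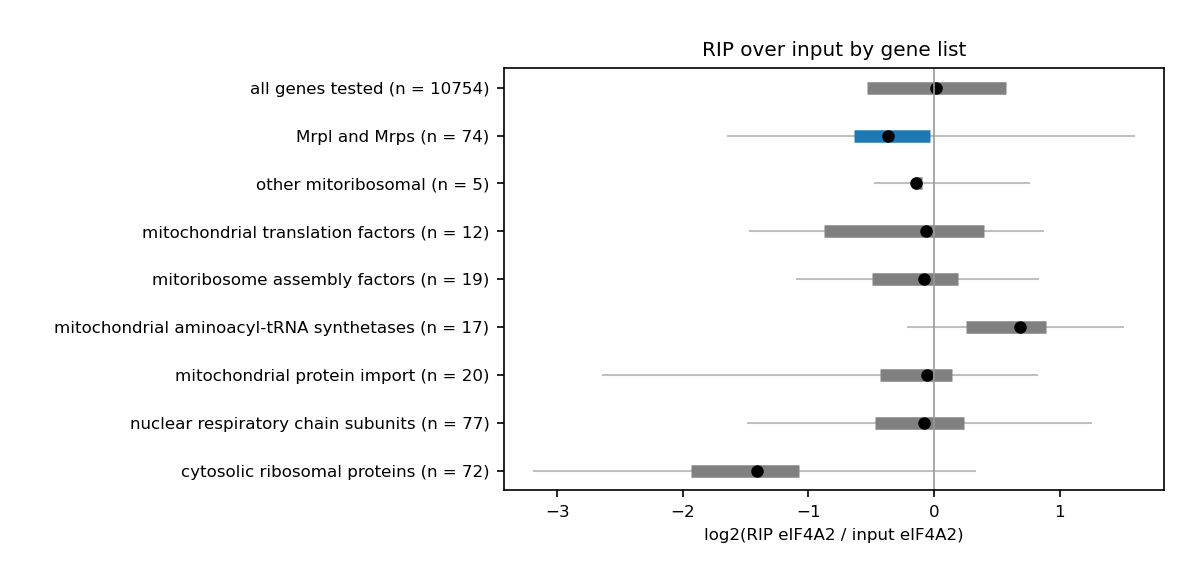
Log2 difference between RIP eIF4A2 and input eIF4A2 (x axis) by gene list (y axis, with the number of genes tested); dots are medians, thick bars the interquartile range of the genes and thin lines their full range (not drawn for all genes). The members (median -0.37) lie between all genes (0.02) and the cytosolic ribosomal proteins (-1.41), and the aminoacyl-tRNA synthetases lie highest (0.68).

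The members are short mRNAs, and over all genes the RIP over input value moved with length. Their median longest annotated transcript was 1923 bases (488 to 7300) against 3423 for the tested protein-coding genes, and their median longest coding sequence 594 against 1377 bases. Over 10087 protein-coding genes, the Spearman correlation of the log2 difference with coding length was 0.49, and with transcript length 0.32. When these genes were put into 5 equal bins of coding length, the median rose from -0.30 in the shortest bin to 0.80 in the longest. Of the members, 48 fell into the shortest bin (up to 741 bases), where their median was -0.28, next to -0.30 for the 2032 protein-coding genes there. Another 21 fell into the second bin, with -0.45 against -0.24, and 5 into the third, with -0.52 against -0.06. The members thus lay close to other genes of the shortest coding length and below those of the next 2 bins. These bins were chosen after the data were seen.

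Among the members themselves, length did not run the way it did over all genes. The Spearman correlation over the 74 members was -0.32 with the longest transcript, -0.15 with the median protein-coding transcript and -0.08 with the longest coding sequence. These are correlations across genes of the same libraries, which are not independent replicates. In bins of transcript length, the 38 members of the shortest bin had a median of -0.26, next to -0.20 for all protein-coding genes there. The 13 members of the second bin had -0.17, next to -0.11. The 23 members of the 3 longest bins had medians of -0.68 (11), -0.42 (9) and -0.40 (3), where all protein-coding genes had 0.04, 0.18 and 0.51. Most members thus lay close to genes of similar transcript length, and those in the longer bins lay below.

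**Figure D3:**
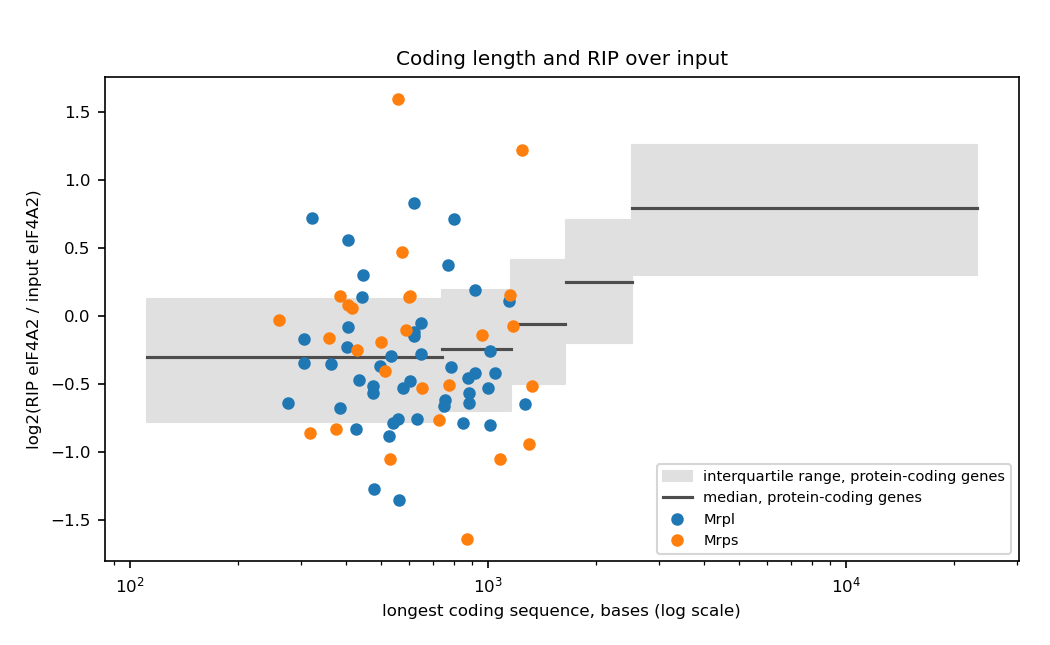
Longest annotated coding sequence (x axis, log scale) and log2 difference between RIP eIF4A2 and input eIF4A2 (y axis) for the 74 members (dots); lines and shaded boxes give the median and the interquartile range of the protein-coding genes in 5 equal bins of coding length. The members cover the 3 shorter bins only, and 48 of them fall into the first, where the line is at -0.30.

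Against the immunoprecipitate of cells without the Flag tag, the design asks which mRNAs came down with the protein and not with the antibody or beads. In edgeR on the 4 RIP libraries, 0 members were higher and 0 lower (0.0% of all genes in either direction). At an unadjusted p under 0.05, 9 members were higher and 5 lower, against 24.0% and 5.31% of all genes. The median was 0.31 over the members and 0.67 over all genes. Both RIP eIF4A2 libraries lay above both RIP EV libraries in 31 members (background 46.7%) and below both in 15 (14.9%). In edgeR on 8 libraries, which shares 1 estimate of the spread, 11 members were higher and 5 lower, where 24.8% and 5.46% of all genes were.

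Most members gave counts in RIP EV. They were present in both RIP EV libraries for 52 of the 74 members (70.3%) against 51.1% of all genes tested, 20 were at 0 in 1 of the 2, and 2 were at 0 in both (2.70% against 18.2%). The 2 libraries disagreed on which mRNAs they held. Mrpl48 had 205 CPM in replicate 1 and 0 in replicate 2, and Mrpl3 had 0.489 and 104 CPM, both named after their values were seen. Replicates were within 2-fold for 41.9% of the members in RIP EV and for 98.6% in each of the other 3 groups.

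**Figure D4:**
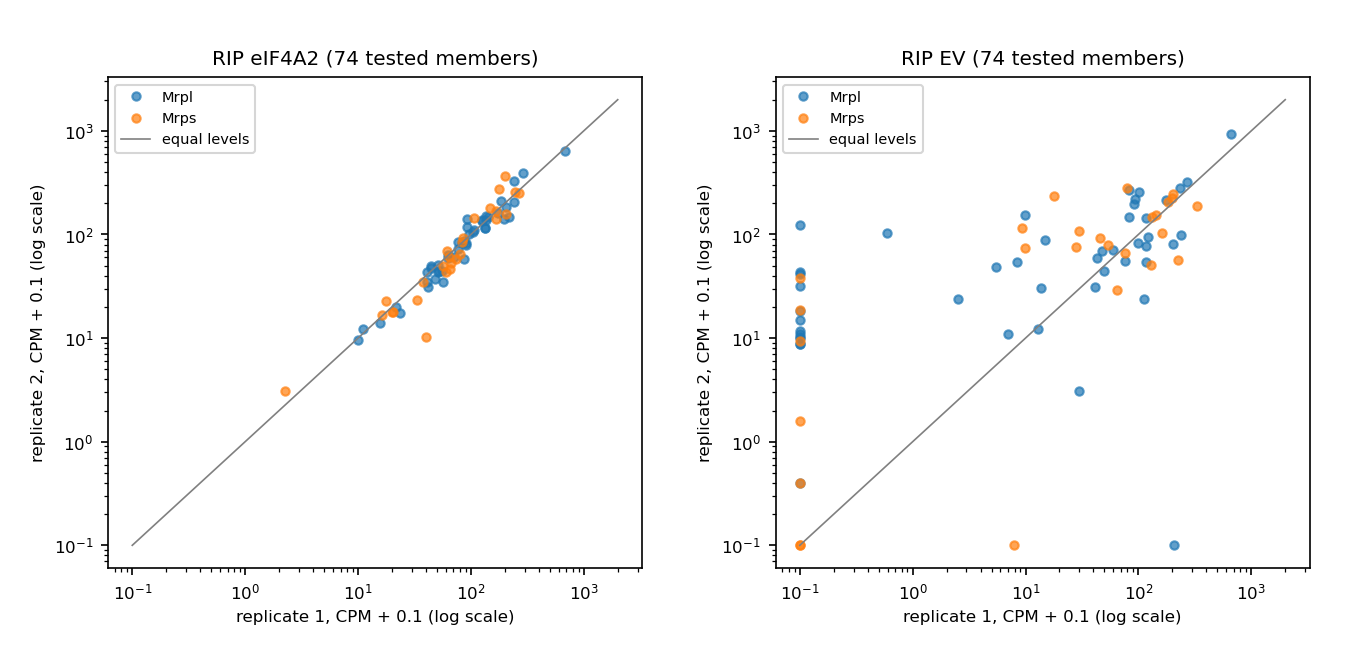
Level of each of the 74 tested members in replicate 1 (x axis) and replicate 2 (y axis) of RIP eIF4A2 (left) and RIP EV (right), as CPM plus 0.1 on log scales; the line marks equal levels. The RIP eIF4A2 points follow the line, with 98.6% of members within 2-fold, while the RIP EV points scatter, with 41.9%, and those at the axes are at 0 counts.

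The members at 0 in both RIP EV libraries were Mrps18c, a small-subunit protein with a bacterial counterpart, and Mrps33, one without. Mrps18c had 37.2 and 34.7 CPM in RIP eIF4A2, which pooled is at least 64.7-fold higher than the limit of 3 counts over both RIP EV libraries. Mrps33 had 2.14 and 3.01 CPM, at least 4.58-fold higher than that limit. Their input levels were 32.5 to 38.7 CPM and 3.03 to 11.2 CPM, so RIP eIF4A2 was within or below the range of the inputs in both.

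Among members with counts in every RIP library, the 5 largest positive values against RIP EV were those of Mrpl57, Mrpl13, Mrpl36, Mrps6 and Mrpl2 (log2 differences 2.76, 2.60, 2.56, 2.08 and 1.73, adjusted p from 0.0973 to 0.429). Mrpl13, which belongs to the conserved core of the large subunit, went from RIP EV levels of 6.85 and 10.8 CPM to 62.6 and 63.8 CPM in RIP eIF4A2, and its 4 inputs lay between 57.3 and 68.1 CPM. Mrpl36, which overlaps Ndufs6 on the other strand and is uncertain for that reason, went from 12.7 and 12.3 CPM to 87.6 and 85.7 CPM. Mrpl13 is uncertain for the same reason, since it overlaps Mtbp (0 and 29 counts in RIP EV, 113 and 109 in RIP eIF4A2). The RIP eIF4A2 levels of Mrpl13 and Mrpl36 lay within the range of their inputs. Mrps6 had 265 and 251 CPM in RIP eIF4A2, below all of its inputs (316 to 430.1 CPM). With 1 of the 4 libraries left out, the value of Mrpl57 ranged from 1.91 to 5.22, that of Mrpl2 from 0.93 to 3.70 and that of Mrps6 from 1.53 to 3.01.

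The 5 largest negative values were those of Mrpl1, Mrps2, Mrps10, Mrps22 and Mrpl19 (-2.42, -2.05, -2.04, -1.54 and -1.43, adjusted p from 0.065 to 0.375). Mrpl1, the counterpart of the bacterial stalk protein L1, had RIP EV levels of 236 and 98.1 CPM next to 41.7 and 31.4 CPM in RIP eIF4A2, while its inputs lay between 32.1 and 53.5 CPM. Mrps10 had 75.8 and 66.1 CPM in RIP EV against 17.5 and 22.8 CPM. Both RIP EV libraries were above both RIP eIF4A2 libraries in all 5. With 1 library left out, the value of Mrpl1 ranged from -2.90 to -1.68 and that of Mrps22 from -1.98 to -0.89.

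RIP EV compared with its own input gave the background of the procedure. No member was called in edgeR on 4 libraries (0 higher and 0 lower, 0.0% of all genes), 13 were lower and 1 higher with an unadjusted p under 0.05 (25.2% and 4.28% of all genes), and the median was -0.83 against -0.65 over all genes. Both RIP EV libraries were below both inputs in 41 members (45.5% of all genes) and above in 10 (14.5%). With 8 libraries, 1 member was higher and 15 lower, where 4.5% and 26.3% of all genes were. The lowest of the members with counts in every RIP library were Mrpl36, Mrpl13, Mrps6, Mrpl57 and Mrpl17 (-3.07 to -2.35) and the highest Mrpl1, Mrps10, Mrps22, Mrpl19 and Mrps18a (2.34 to 0.59). With 1 library left out, Mrpl57 ranged from -5.13 to -1.87 and Mrps22 from 0.24 to 1.37. This comparison shares the RIP EV libraries with the one before, so the same libraries set both orders.

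Calls that involve RIP EV depended on which of its libraries was used. Without RIP EV replicate 1, 30 members were called higher and 21 lower against RIP EV, where 43.8% and 21.6% of all genes were, and without replicate 2, 44 and 14, where 59.0% and 18.6% were. Against input EV the omission of replicate 1 gave 4 higher and 32 lower, next to 16.9% and 41.1% of all genes, and that of replicate 2 gave 5 and 48, next to 16.2% and 60.3%. With 1 library left in that group, these tests assume that it varies like the other groups, which the measured spread of RIP EV goes against.

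The inputs of the 2 cell lines were compared to see whether re-expression went with other levels of these mRNAs. No member differed in edgeR (0 higher and 0 lower, 0.0% of all genes), and with an unadjusted p under 0.05 there were 0 higher and 4 lower (3.74% and 3.66% of all genes). The median was -0.22 over the members and -0.01 over all genes, 55 of 74 lay below the latter, and both input eIF4A2 libraries were below both input EV libraries in 28 members and above in 6, where the background was 18.1% and 19.9%. The largest negative values were those of Mrps28, Mrpl9, Mrps33, Mrpl12 and Mrps11 (-1.57, -1.44, -1.03, -1.01 and -0.89, adjusted p from 0.66 to 0.723). Mrpl9, a large-subunit protein with a bacterial counterpart, had 14.2 and 11.5 CPM in input EV and 4.98 and 4.66 CPM in input eIF4A2. The largest positive values were those of Mrpl1, Mrps9, Mrps22, Mrpl46 and Mrps31 (0.66 to 0.24). Mrps11 and Mrpl46 overlap each other on opposite strands, and their reads may not be told apart.

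**Figure D5:**
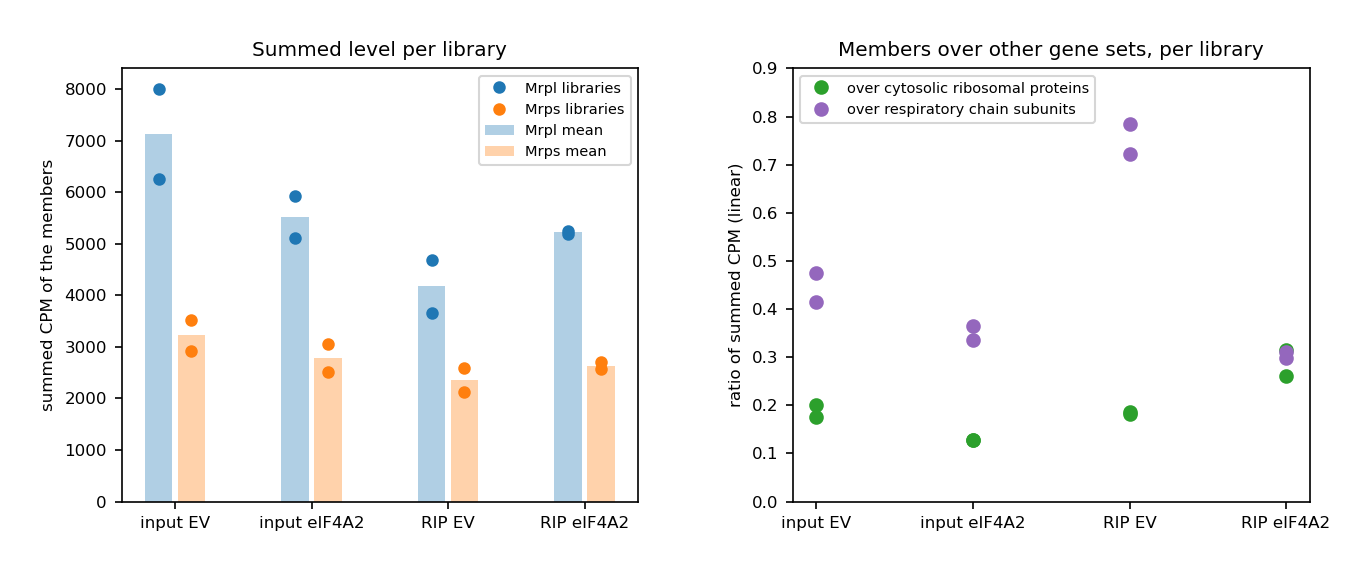
Left, summed CPM of the Mrpl and Mrps genes (y axis) in each group (x axis); dots are single libraries and bars the means of 2. Right, summed CPM of all members divided by that of the cytosolic ribosomal protein genes or of the nuclear respiratory chain genes, 1 dot per library. RIP EV has the lowest sums (5782 and 7287 CPM for all members), and the ratio to cytosolic ribosomal proteins is highest in RIP eIF4A2 (0.260 and 0.316).

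Summed over all members, the level was 7820 and 7903 CPM in RIP eIF4A2, between the 2 values of its input and above both values of RIP EV (5782 and 7287 CPM). The ratio of group means was 0.947 to input eIF4A2 and 1.20 to RIP EV. On TMM-scaled libraries these ratios were 0.769 and 0.993. No sum passed the exact permutation test (two-sided), whose smallest p here is 0.333. Mrpl12 weighs on such sums, so the medians above describe the set better than the totals.

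The change between RIP and input was set against the same change in the EV cells in 1 model of all 8 libraries. Of the 74 members, 7 had a larger value in Flag-eIF4A2 cells and 2 a smaller one at an adjusted p of at most 0.05, next to 19.2% and 2.1% of all genes tested. With an unadjusted p under 0.05 there were 14 and 2, next to 25.3% and 5.04%. The medians were 0.58 and 0.64. Mrpl20, of the conserved large-subunit core, had 123 and 160 CPM in input EV and 41.1 and 31.1 CPM after RIP, but 87.2 and 94.0 CPM in input eIF4A2 and 137 and 139 CPM in RIP eIF4A2 (log2 difference of differences 2.27, SE 0.49, adjusted p = 0.0216). Mrpl36 and Mrpl13 gave 2.70 and 2.5. The 2 members with a smaller value were Mrpl1 (-3.17, SE 0.76, adjusted p = 0.0284) and Mrps2. All 9 calls were absent with voom and group weights, and each was lost in at least 5 of the 8 fits that left out 1 library.

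Whether reads were assigned by strand is not given in the sources used here. Of the 78 members, 25 overlap a gene on the other strand that had counts. The 24 of them that were tested had a median log2 difference between RIP eIF4A2 and input eIF4A2 of -0.43, and the 50 others -0.25, so the members without such an overlap also lay below the 0.02 of all genes. Of the members named, Mrpl9, Mrpl12, Mrpl13, Mrpl19, Mrpl36, Mrpl46, Mrpl48, Mrpl53, Mrpl58, Mrps11, Mrps25 and Mrps30 have such an overlap. Their values are uncertain for that reason.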

How the data were processed

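The deposited values were whole-number counts per gene from 8 QuantSeq 3′ tag libraries, and the authors made them by trimming with bbduk, mapping to mm10 with STAR (version 2.5.3a), and counting with HTSeq-count (version 0.11.2). Neither the annotation release nor strandedness is given in the sources used here. Members and gene lists were chosen with earlier results of these data known. Names and lengths came from GENCODE M21, which matched 52403 identifiers. The 5 HTSeq summary lines stayed out of totals and tests, which left 19.9% to 68.2% of reads on genes. This share went with the group, at 19.9% and 29.9% in RIP EV, 30.0% to 46.4% in the inputs, and 68.2% and 68.1% in RIP eIF4A2. Reads on no annotated feature made up 45.8% and 29.7% in RIP EV and 3.30% and 4.13% in RIP eIF4A2.

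Each comparison used edgeR (version 4.0.16) quasi-likelihood tests with TMM factors on its 4 libraries, since the spread of RIP EV far exceeded that of the others, and on all 8 for the difference between cell lines. Genes at 1 CPM or more in all 4 inputs were tested and adjusted together (Benjamini-Hochberg, 0.05). The fit of RIP eIF4A2 against input eIF4A2 was also run on simulated counts with the same spread for all genes. That run does not cover the comparisons with RIP EV or the difference between cell lines. Replicates of a group differed by more than counting noise, so none was a duplicate.

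Named members were, for RIP eIF4A2 against input and input against input, up to 10 called in each direction, or the 5 largest values where fewer than 5 were called. For comparisons with RIP EV they were the 5 largest in each direction with counts in every RIP library. Also named were the 5 most abundant, all below the filter, and 6 for their roles. Alternatives were other scalings, filters, DESeq2 (version 1.42.0), limma voom (version 3.58.1), a replicate block, and leaving out libraries.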

Additional observations from a re-analysis of the deposited data

Results flagged for a closer look

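The following 9 members are listed because the RIP over input change differed between Flag-eIF4A2 and EV cells in the interaction test (edgeR on 8 libraries, adjusted p from 0.0176 to 0.0414). The log2 difference was -3.17 for Mrpl1 and -1.99 for Mrps2, whose RIP EV libraries exceeded both inputs. It was 2.27 for Mrpl20, 2.5 for Mrpl13 and 2.70 for Mrpl36. It was 6.77 for Mrpl9, 6.91 for Mrps27, 7.83 for Mrps33 and 10.72 for Mrps18c, which had at most 1 count over both RIP EV libraries, so that these 4 values depend on the prior count of the fit and are no bounds. In Mrps33 both RIP eIF4A2 libraries, at 2.14 and 3.01 CPM, were below both of their inputs (3.03 and 4.5 CPM). The part of the spread between the 2 RIP EV libraries in these calls was not tested.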

How the results depend on the processing

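The distance of the members' median from that of all genes in RIP eIF4A2 against input eIF4A2 was -0.38. It kept its sign under all alternatives, from -0.43 to -0.38 with all libraries and from -0.45 to -0.28 with 1 left out. Other scalings shift all genes nearly alike and could hardly move this distance, so their agreement is no check of it. Counts of members called higher and lower were less stable. With the shares of all genes in brackets, they were 2 and 9 in DESeq2 on 4 libraries (9.27% and 10.2%), 0 and 0 in edgeR on 8 libraries (0.0% and 0.0558%, with 0 and 3 members at an unadjusted p under 0.05), 4 and 3 with library size alone (1933 and 567 genes), 2 and 6 with no filter (6.61% and 5.16%), 0 and 6 with voom and group weights (8.17% and 8.82%), and 0 to 1 and 1 to 9 with 1 library left out (3.75% to 12.2% and 4.23% to 10.3%). On CPM of library totals, 20 members lay above and 24 below both inputs. Shares of all genes are not given here for these counts, nor for counts at an unadjusted p in the alternative fits.

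Against RIP EV, 6 and 4 were called in DESeq2 on 4 libraries (7.75% and 4.96%), 23 and 11 in DESeq2 on 8 (30.4% and 10.5%), 11 and 5 in edgeR on 8 (24.8% and 5.46%), 9 and 0 with voom (21.7% and 0.828%), and 0 to 44 and 0 to 21 with 1 library left out (0.186% to 59.0% and 0.456% to 21.6%). The distance of the medians, -0.36, was -1.33 with no filter, -0.97 with voom, and -1.78 to -0.30 with 1 library left out. In RIP EV against input EV, 1 and 7 were called in DESeq2 on 4 libraries (2.97% and 4.68%), 3 and 24 in DESeq2 on 8 (10.0% and 32.0%), 1 and 15 in edgeR on 8 (4.5% and 26.3%), 0 and 14 with voom (1.0% and 23.5%), and 0 to 5 and 0 to 48 with 1 library left out (0.177% to 16.9% and 0.205% to 60.3%). There the distance, -0.18, was -0.40 with filterByExpr, 1.01 with no filter, 0.50 with voom, and -0.29 to 1.33 with 1 library left out. For the difference between cell lines the counts were 14 and 6 in DESeq2 on 8 (24.5% and 5.65%), 9 and 1 with library size alone (20.6% and 1.54%), 0 and 0 with voom (0.0% of all genes, with 14 and 1 members at an unadjusted p under 0.05), and 0 to 42 and 0 to 7 with 1 library left out (0.0% to 54.0% and 0.0% to 12.4%). With no filter, many more genes of low counts enter the median of all genes, and the cause of the other changes was not tested.

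The summed level of the members in RIP eIF4A2 over RIP EV turned from 1.20 to 0.993 on TMM-scaled libraries, and over input eIF4A2 from 0.947 to between 0.875 and 1.03 with 1 library left out. The Spearman correlation with length was -0.15 for the median protein-coding transcript, -0.083 for coding length, and -0.32 to -0.26 with 1 library left out. Mrps31 between the inputs turned from 0.24 to -0.031 without input eIF4A2 replicate 1, and the omissions gave -0.031 to 0.55. No member was called between the inputs under any alternative. At an unadjusted p under 0.05 there were 0 and 4 in edgeR (3.74% and 3.66% of all genes). With the replicate number as a block there were 0 and 8.

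Replicate numbers are shared by name only, and same-numbered libraries of 2 groups deviated together with correlations of -0.03 to 0.12. With the replicate number as a block, 0 members were higher and 4 lower in RIP eIF4A2 against input eIF4A2 (6.96% and 6.5% of all genes), 0 and 0 against RIP EV (1.95% and 1.59%, with 2 and 2 members at an unadjusted p under 0.05, distance -1.01), 0 and 3 in RIP EV against input EV (1.43% and 2.53%, distance 0.42), 0 and 0 between the inputs (0.363% and 0.205%), and 6 and 1 for the difference between cell lines (14.9% and 1.25%). At the depth of RIP EV, the 2 members at 0 in both libraries have only a bound there.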
